A study of Mus musculus with 78 samples.

Results

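The effect of 2 months of acarbose on the liver transcriptome of female mice was read from 6 libraries, the 3 acarbose females and the 3 control females of 6 months among the 78 liver libraries of the series. The comparison covered every gene kept by a filter on low counts, 14816 of the 43629 genes in the count table. The study measured liver RNA after interventions linked to mouse longevity, as poly(A)-selected libraries with read counts per gene. All mice compared here were UM-HET3, a genetically mixed stock bred from several inbred strains, so that the animals of a group are not genetically identical. Acarbose females ate a standard diet (Purina 5LG6) with 1000 ppm acarbose for 2 months up to 6 months of age, and control females ate the same diet without the drug. Acarbose males and control males of 6 months (the same dose and duration), and acarbose females of 12 months (1000 ppm for 8 months) with control females of 12 months, served to show where the effect in young females differed. Each group had 3 libraries. The labels do not describe the samples of a group further, so that p-values measure the spread between libraries.

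Acarbose blocks the intestinal alpha-glucosidases that release glucose from starch and sucrose, so that carbohydrate reaches the blood more slowly and the lower gut in larger amounts. The drug is poorly absorbed. The liver takes up sugar, amino acids and bile acids that return from the gut. It makes bile acids from cholesterol, with CYP7A1 at the first step and CYP8B1 setting the share of cholic acid, it breaks down amino acids to glucose and urea, and it conjugates reactive compounds to glutathione through the glutathione transferases (GST), many of whose genes are driven by the transcription factor NRF2.

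The 6 libraries held 25797046 to 31973353 assigned counts. Levels below are CPM, read counts relative to the size of the library with TMM scaling. Fold changes are log2 values of acarbose over control ± SE, with n = 3 libraries per group. A gene passed when edgeR's quasi-likelihood test with Benjamini-Hochberg adjustment gave it a value under 0.05. The libraries were female by Xist, with 3872 to 17459 counts, and by the Y-linked genes Ddx3y, Uty, Kdm5d and Eif2s3y, with at most 4 counts each. The 11 hepatocyte markers summed to 124500 to 127600 CPM of all assigned counts in controls and 149800 to 161900 in acarbose females. Most of that difference was Alb (albumin), at 74850 to 87790 CPM against 104600 to 107200 with TMM scaling (0.39 ± 0.19, adjusted p = 0.188). The 8 pancreas markers summed to 3.69 to 8.53 CPM and 4.66 to 10.3, with Ctrb1, Pnlip, Amy2a5 and Cel at 0 counts, and the 10 kidney, 6 skeletal muscle and 4 adrenal markers each summed to at most 2.05 CPM. In bulk liver, fewer cells of a type and less RNA per cell cannot be told apart. The counting strand is not given in the sources used here, and reads of near-identical paralogs (the Gsta, Gstm, Sult3a, Sult2a, Cyp3a41 and Cyp4a families) may be split between members. Values of single members there are uncertain. Reads may likewise be shared for the 29 of 146 genes chosen for description whose exons overlap those of another gene in the table, including Abcb11, Acaa1a, Bhmt, Cdc20, Cntnap1, Cpox, Cyp2c55, Dmgdh, Etfdh, Gclm, Gss, Hsd3b2, Hspd1, Irs2, Lhx6, Mafg, Masp2, Meg3, Mttp, Ndufs1, Nid2, Oplah, Pfkfb1, Ppox, Slc22a3, Slc27a2 and Slc51b.

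Acarbose changed many genes, in similar numbers up and down. In all 1575 genes passed (10.6% of those tested), 783 higher (5.28%) and 792 lower (5.35%). Of these 261 rose and 183 fell at least 2-fold. All 3 acarbose libraries lay above all 3 controls in 1759 genes (11.9%) and below them in 1725 (11.6%), and of the 1575 genes 1408 had no overlap between the groups. The median log2 fold change of all tested genes was 0.02. An unadjusted p under 0.05 was reached by 3766 genes (25.4%), and DESeq2 called 2001 (13.8% of those it gave an adjusted p). The count rests on the other 30 libraries of 6 months, which share the estimate of spread: with only the 6 compared libraries in the fit 177 genes passed, 88 higher and 89 lower, and with the 18 female libraries 1038. Of the 44 role and 15 marker lists, 25 had any passing member in the fit of 6 libraries, with at most 4 in a list. Of the 142 genes that passed and were chosen for closer description, 37 passed in that fit and 81 in all 6 fits that left out 1 library.

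**Figure D1:**
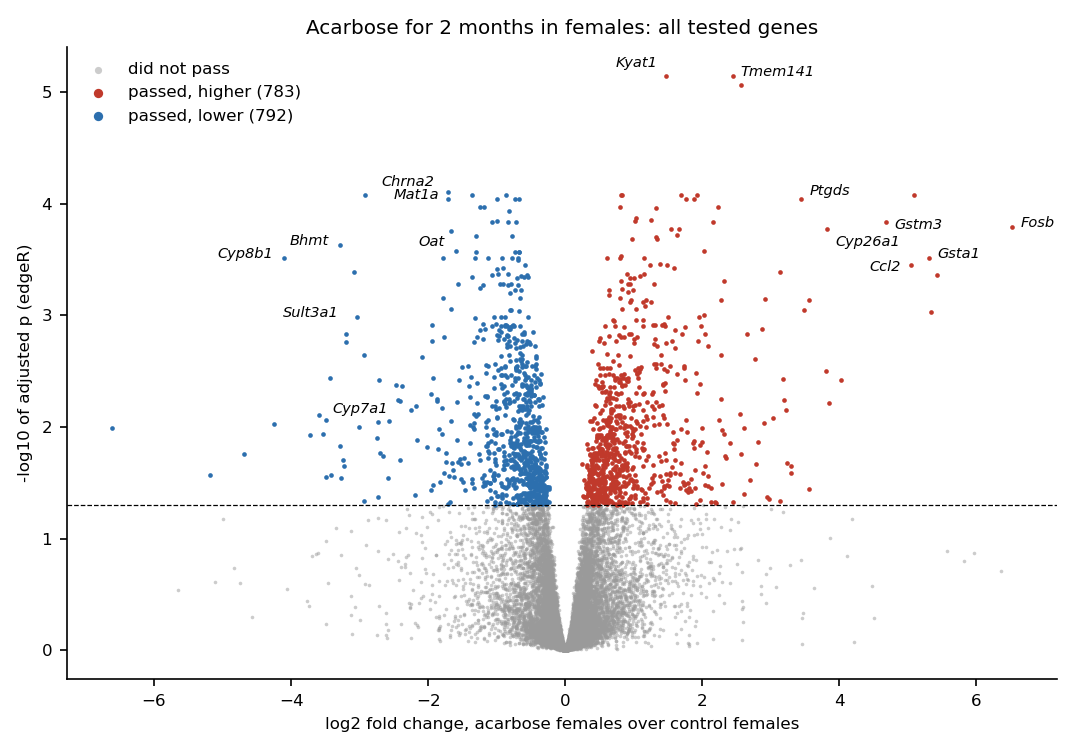
Each point is 1 of the 14816 tested genes, with the log2 fold change of acarbose females over control females on the x axis and the -log10 of edgeR's adjusted p on the y axis. The dashed line marks an adjusted p of 0.05. The 783 genes that passed as higher and the 792 as lower spread about evenly on both sides, with Tmem141 and Kyat1 at the top and Cyp8b1 and Bhmt far to the left.

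The acarbose females were not equally shifted. On the second principal component of the 18 female libraries of 6 months, which held 14.4% of the variance, acarbose 1, 2 and 3 lay at 36.7, 52.7 and 56.8. The other 15 libraries, of controls and of females on the other treatments, lay at or below 7.26. Over the 1575 genes, the median shift from the control mean in the direction of the call was 0.48 (log2) in acarbose 1, 0.78 in acarbose 2 and 0.83 in acarbose 3, and acarbose 1 was the least shifted of the 3 in 69.5% of them. Leaving out acarbose 1 raised the count of passing genes to 2484. It fell to 937 without acarbose 2, 521 without acarbose 3, 973 without control 1 and 925 without control 3, and was 1221 without control 2.

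Transcripts of glutathione conjugation rose. Of 19 measured GST genes 5 rose and 1 fell (median log2 fold change 0.31), of 31 NRF2 targets 9 rose and 1 fell (0.34), and of 13 genes of glutathione synthesis and use 3 rose and 1 fell (0.01). Lists here and below share members: Gclc and Gclm count both as NRF2 targets and under glutathione synthesis and use. Because the motif core bound by NRF2 with its MAF partners, the antioxidant response element TGACNNNGC, is known from such promoters, RefSeq promoter windows on GRCm38.p6 (250 bases before to 50 after each start site) were searched on both strands. It shares its TGAC with the AP-1 site TGACTCA. A gene counted when any of its windows held a match. A match was found for 15 of the 44 tested GST and NRF2 list genes with a window (34.1%), for 5 of the 12 that rose (41.7%) and for 10 of the 32 others (31.2%), against 16.8% of 11030 tested genes and 14% of 27025 genes with a window. The windows of 3 genes that rose, encoding a UDP-glucose dehydrogenase that supplies glucuronidation, the modifier subunit of glutamate-cysteine ligase and a thioredoxin reductase, show the matches in capitals. They lie at chr5:65435793-65436092 (minus strand, Ugdh), chr3:122245307-122245606 (plus strand, Gclm) and chr10:82858956-82859255 (plus strand, Txnrd1), and the matches begin at -132 and -94, at -134 and at -92, counted from the start site.
Ugdh: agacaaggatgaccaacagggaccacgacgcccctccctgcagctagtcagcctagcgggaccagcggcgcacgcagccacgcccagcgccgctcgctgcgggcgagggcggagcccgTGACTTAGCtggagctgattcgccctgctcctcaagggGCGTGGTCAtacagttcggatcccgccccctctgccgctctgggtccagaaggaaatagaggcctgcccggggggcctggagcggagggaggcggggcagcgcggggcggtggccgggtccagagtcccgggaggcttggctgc
Gclm: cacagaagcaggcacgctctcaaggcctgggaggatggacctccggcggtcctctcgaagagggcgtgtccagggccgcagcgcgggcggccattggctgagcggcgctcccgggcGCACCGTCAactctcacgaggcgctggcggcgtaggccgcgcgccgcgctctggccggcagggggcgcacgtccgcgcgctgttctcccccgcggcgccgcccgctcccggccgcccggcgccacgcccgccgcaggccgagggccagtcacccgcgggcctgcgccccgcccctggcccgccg
Txnrd1: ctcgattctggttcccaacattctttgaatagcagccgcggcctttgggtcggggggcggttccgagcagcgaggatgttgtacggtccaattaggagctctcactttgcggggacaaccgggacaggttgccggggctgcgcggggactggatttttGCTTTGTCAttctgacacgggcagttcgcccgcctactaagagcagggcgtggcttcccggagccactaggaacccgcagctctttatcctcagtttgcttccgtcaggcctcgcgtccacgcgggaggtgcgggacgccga
The other 2 genes that rose with a match were Srxn1, which encodes sulfiredoxin, at 29 and Nfe2l2, which encodes NRF2 itself, at -240. Other windows of Txnrd1 held no match, nor did those of Gsta1, Gsta2, Gstm3 and Osgin1, which also rose. Txnrd1 stood at 82.55, 84.77 and 77.61 CPM in controls and 81.45, 142.5 and 140.7 in acarbose females (0.57 ± 0.13), so its groups overlapped.

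Gstm3 (ENSMUSG00000004038, chromosome 3, 107963696 to 107969283 on GRCm38), a mu-class transferase, stood at 4.36, 2.26 and 4.70 CPM in controls and at 19.1, 59.7 and 213 in acarbose females, a log2 fold change of 4.68 ± 0.68 (adjusted p = 0.000147). The groups did not overlap, and acarbose 3 was more than 10 times as high as acarbose 1. Gsta1 (chromosome 9, 78230656 to 78242684), an alpha-class transferase, had 23 counts over the 3 controls and 943 over the 3 acarbose females (5.32 ± 0.85, adjusted p = 0.000303). The more abundant Gstm1 rose from 521, 513 and 606 CPM to 675, 1625 and 1684 (1.28 ± 0.24), and Gsta2 from 6.33, 7.16 and 9.52 to 20.3, 39.5 and 31.0 (1.98 ± 0.37). Both had their lowest treated value in acarbose 1, which still lay above every control. Gclc, the catalytic subunit that limits glutathione synthesis, rose from 247, 318 and 380 CPM to 487, 809 and 651 (1.04 ± 0.22, adjusted p = 0.00328). Gclm (0.86 ± 0.17), Gss, which completes glutathione (0.65 ± 0.19), Ugdh (1.298 ± 0.23), the glucuronosyltransferase gene Ugt2b35 (1.04 ± 0.15) and Osgin1, a growth inhibitor induced by oxidative stress (2.25 ± 0.54), rose as well. Among the NRF2 targets that did not pass was Nqo1, the quinone reductase, at 8.97, 6.495 and 8.84 CPM in controls and 8.17, 8.95 and 9.93 in acarbose females (0.15 ± 0.23). The members that fell were Gstz1, which acts in tyrosine breakdown, Oplah, which recycles oxoproline, and Abcc3, an efflux pump of the sinusoidal membrane. The 9 NRF2 targets became 4 without acarbose 3 and 6 without acarbose 2 or control 1. The call on Gss was lost without acarbose 2, acarbose 3, control 1 or control 2, and that on Osgin1 without acarbose 3 or control 1, with adjusted p up to 0.211 and 0.0679.

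Transcripts of bile acid synthesis fell, and those of transport moved in both directions. Of 16 measured synthesis genes 6 fell and 0 rose (median -0.32). At an unadjusted p under 0.05 edgeR likewise had 0 higher, and so did DESeq2. Cyp8b1 (ENSMUSG00000050445, chromosome 9, 121914356 to 121916305), the sterol hydroxylase named above, stood at 728, 740 and 676 CPM in controls and at 104, 15.8 and 4.11 in acarbose females (-4.11 ± 0.65, adjusted p = 0.000303). Controls were nearly equal, while the acarbose females differed from each other by more than 20 times. Cyp7a1 (chromosome 4, 6265612 to 6275633), whose product starts the classical pathway, followed the same order, with 50.5, 99.8 and 109 CPM in controls and 21.1, 1.25 and 0.54 in acarbose females (-3.49 ± 0.84, adjusted p = 0.0086). The peroxisomal side-chain genes Hsd17b4 (-0.56 ± 0.11) and Acox2 (-0.64 ± 0.19) fell, as did Acot8 and Amacr of the same organelle, and the call on Acox2 was lost in 5 of the 6 fits that left out a library, all except that without acarbose 1 (adjusted p up to 0.151). The 6 became 3 without acarbose 3 or control 3, and 4 without acarbose 2 or control 1.

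Of 14 transport genes 4 rose and 2 fell. Slc51b, a subunit of the basolateral exporter, had 34 counts over the controls and 380 over the acarbose females, at 0.55, 0.26 and 0.32 CPM against 2.25, 4.64 and 6.07 (3.49 ± 0.64, adjusted p = 0.000896). Abcb11, the canalicular bile salt export pump, rose from 503, 433 and 540 CPM to 880, 760 and 1211 (0.95 ± 0.17), and Slc10a1, the main uptake carrier from blood, fell from 622, 677 and 733 to 420, 396 and 361 (-0.79 ± 0.14). None of these groups overlapped. Abcc3 fell (-0.71 ± 0.19), which was lost without acarbose 3 or control 3 (adjusted p up to 0.101), and Abcg8 and Atp8b1, which act at the canalicular membrane, made up the 4 that rose. That count was 2 without acarbose 3, control 1 or control 2. Of 13 regulators in the list around the bile acid receptor FXR, Mafg (0.45 ± 0.13) and Fgfr4 (0.48 ± 0.15) rose and Rxra fell (-0.46 ± 0.10). Nr0b2, the gene of the repressor SHP, did not pass, at 43.6, 74.2 and 72.1 CPM in controls and 118, 151 and 194 in acarbose females (1.29 ± 0.46, adjusted p = 0.0736), although every treated library lay above every control. Without acarbose 2, acarbose 3, control 1 or control 3, 0 of the 13 regulators rose. With control 2 left out 1 rose, and the call on Fgfr4 held only without acarbose 1 (adjusted p otherwise up to 0.222). Adjusted p reached 0.254 for Mafg, and 0.052 for Rxra without acarbose 3.

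**Figure D2:**
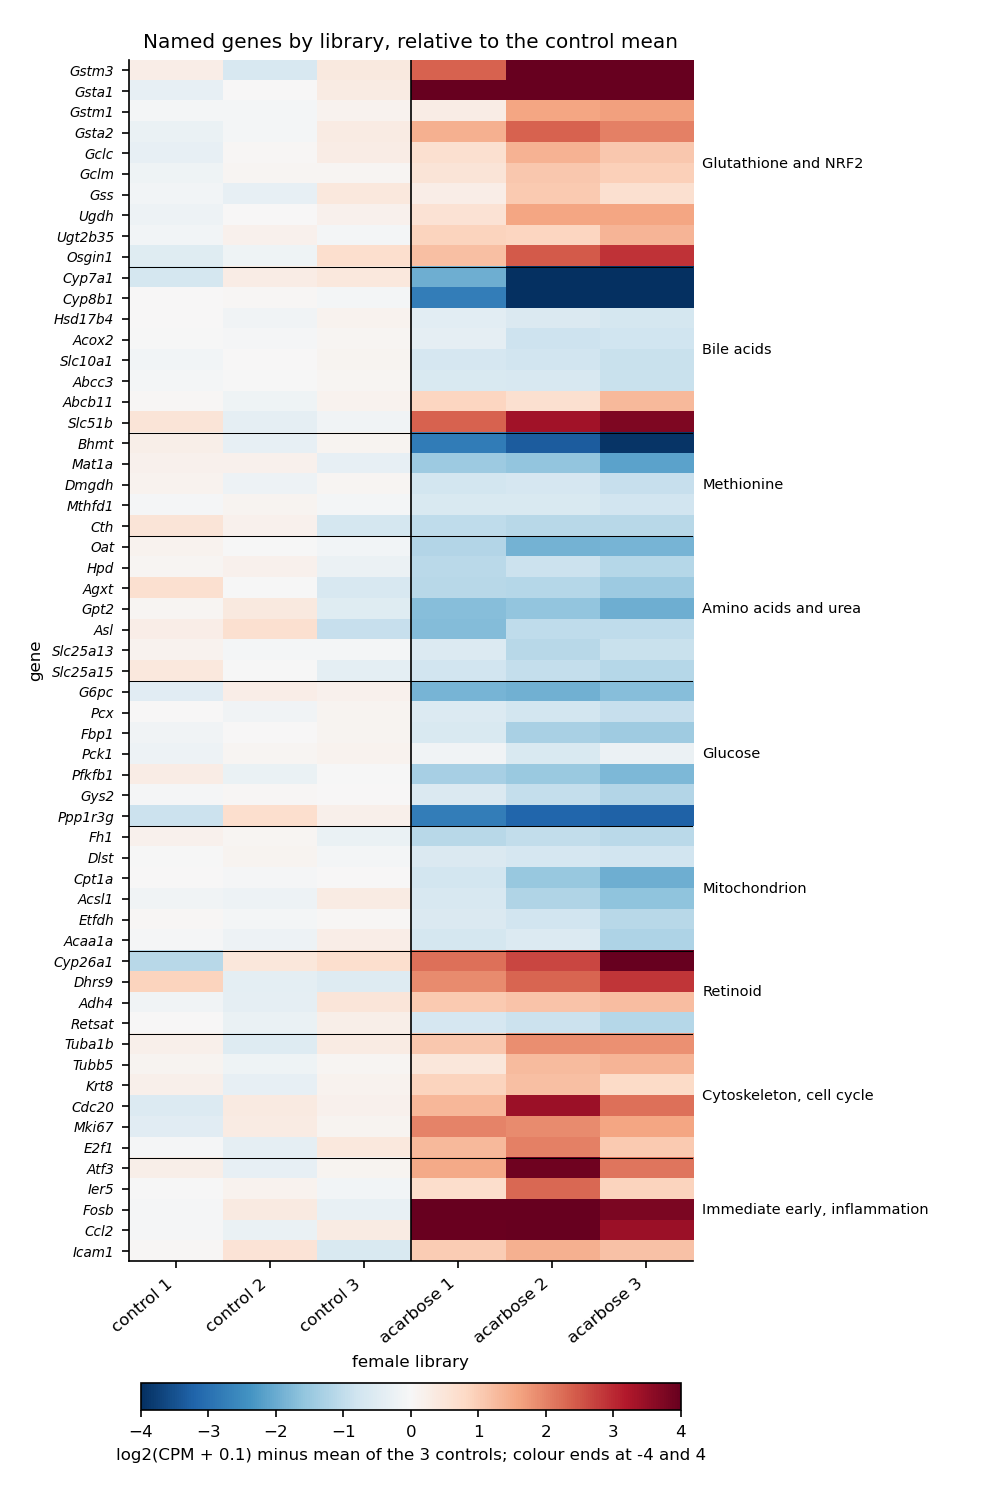
Each row is 1 of 58 named genes grouped by role and each column 1 female library, and the colour is log2(CPM + 0.1) minus the mean of the 3 controls. The control columns are pale, and for Cyp8b1, Cyp7a1, Gstm3 and Bhmt the colour of acarbose 1 is weaker than that of acarbose 2 and 3.

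Transcripts of methionine and one-carbon metabolism fell, with 9 of 30 measured members lower and 1 higher (median -0.39). Bhmt (ENSMUSG00000074768, chromosome 13, 93616675 to 93637961), which remethylates homocysteine with betaine, stood at 9659, 6539 and 8838 CPM in controls and at 1196, 813 and 548 in acarbose females (-3.29 ± 0.51, adjusted p = 0.000235). Dmgdh, which breaks down the dimethylglycine that this reaction leaves, fell from 987, 776 and 938 to 533, 567 and 474 (-0.78 ± 0.13), and Sardh, the next enzyme, was also among those that passed. Mat1a (chromosome 14, 41105035 to 41124412), the hepatic methionine adenosyltransferase, fell from 8667, 8611 and 6153 to 2812, 2606 and 1746 (-1.71 ± 0.24, adjusted p = 8.99e-05). Each of these genes had its 3 treated libraries below its 3 controls. Mthfd1 of the cytosolic folate cycle fell (-0.66 ± 0.12), as did Cth, which makes cysteine from cystathionine (-1.16 ± 0.31), although that call was lost without acarbose 2, acarbose 3 or control 1 (adjusted p up to 0.0988). Mthfd2, the mitochondrial folate enzyme of growing cells, was the member that rose, from 33 counts over the controls to 140 (2.09 ± 0.42).

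Transcripts for the breakdown of other amino acids fell in 20 of 49 measured members against 1 that rose (median -0.40). Oat (chromosome 7, 132557478 to 132576398), ornithine aminotransferase, fell from 1531, 1393 and 1296 CPM to 627, 380 and 384 (-1.60 ± 0.26, adjusted p = 0.000263). Hpd of tyrosine breakdown fell from 3387, 3608 and 2767 to 1519, 1776 and 1461 (-1.04 ± 0.19), Agxt, which clears glyoxylate, from 1081, 682 and 443 to 316, 316 and 252 (-1.32 ± 0.25), and Gpt2, an alanine aminotransferase, from 549, 691 and 374 to 161, 176 and 136 (-1.77 ± 0.35). The groups of these genes did not overlap, and control 3 was the lowest control in each. Mccc2 of leucine breakdown (-0.67 ± 0.12) and the amino acid carrier Slc38a4 (-0.69 ± 0.11) also fell, and Psph of serine synthesis was the member that rose. Of 9 urea cycle genes 3 fell and 0 rose (median -0.61, also 0 higher at an unadjusted p under 0.05 and in DESeq2): Asl, argininosuccinate lyase (-1.36 ± 0.40), and the mitochondrial carriers Slc25a13 (-0.83 ± 0.13) and Slc25a15 (-0.99 ± 0.21). Asl kept its call only without control 3 (adjusted p otherwise up to 0.145). Kyat1, which encodes a kynurenine and glutamine transaminase, went the other way, from 41.2, 39.7 and 49.95 to 96.7, 124 and 140 CPM (1.47 ± 0.16), with the smallest adjusted p of the comparison beside Tmem141 (7.14e-06). The 20 amino acid genes became 8 without acarbose 3 and 12 without control 3.

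Genes of glucose production fell with them. Of 20 measured gluconeogenesis genes 8 fell and 0 rose (median -0.62, with 0 higher at an unadjusted p under 0.05 and in DESeq2). G6pc (chromosome 11, 101367561 to 101377903), which releases free glucose, fell from 277, 455 and 423 CPM to 104, 98.1 and 115 (-1.86 ± 0.43, adjusted p = 0.0056). Fbp1 fell from 889, 988 and 1057 to 641, 395 and 360 (-1.07 ± 0.20), and Pcx, which feeds pyruvate into the pathway, from 1428, 1274 and 1500 to 949, 840 and 737 (-0.73 ± 0.12). Pck1, the cytosolic control enzyme, did not pass, at 3442, 4181 and 4437 CPM against 3608, 2606 and 3433, where the groups overlapped (-0.32 ± 0.21, adjusted p = 0.345). Of 26 genes of glycolysis and glucose uptake 4 fell and 1 rose, among them Pfkfb1, which sets the level of an activator of glycolysis (-1.55 ± 0.34), and Irs2, the insulin receptor substrate (-1.15 ± 0.30, lost without acarbose 2 or 3 with adjusted p up to 0.102). Of 16 glycogen genes the synthase Gys2 fell from 158, 165 and 162 CPM to 108, 83.2 and 72.1 (-0.88 ± 0.21), as did Ppp1r3g, a subunit that directs a phosphatase to glycogen (-3.29 ± 0.86), and 0 rose (0 at an unadjusted p under 0.05 and in DESeq2). Without acarbose 3 the gluconeogenesis count was 4, the glycolysis count 2 lower and 0 higher and the glycogen count 0. Adjusted p reached 0.0714 for Gys2 and 0.0814 for Ppp1r3g, which was also lost without acarbose 2.

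Transcripts of fatty acid oxidation fell. Fatty acid oxidation and ketogenesis had 18 of 41 members lower and 0 higher (median -0.69, with 0 higher at an unadjusted p under 0.05 and in DESeq2). Cpt1a (chromosome 19, 3322334 to 3385733), which admits fatty acids to mitochondria, fell from 1249, 1200 and 1260 CPM to 745, 435 and 320 (-1.31 ± 0.21, adjusted p = 0.000269). Acsl1, which activates fatty acids, fell from 1701, 1614 and 2365 to 1198, 804 and 606 (-1.12 ± 0.18), and Etfdh, which passes their electrons to ubiquinone, from 590, 545 and 591 to 382, 335 and 264 (-0.82 ± 0.12). In each, acarbose 1 was the highest and acarbose 3 the lowest treated library, all below the controls. The peroxisomal thiolase gene Acaa1a fell too (-0.81 ± 0.15). Of 20 citric acid cycle genes 6 fell and 0 rose (median -0.25, again 0 higher at an unadjusted p under 0.05 and in DESeq2), including fumarase, Fh1, from 222, 208 and 162 CPM to 90.8, 98.0 and 93.2 (-1.07 ± 0.16), and Dlst (-0.67 ± 0.11). Of 65 nuclear respiratory chain genes only Ndufs1 (-0.47 ± 0.09) and Ndufb3 (-0.46 ± 0.14) fell, and 8 passed as lower without acarbose 2. The call on Ndufb3 was lost without acarbose 3 or control 3 (adjusted p up to 0.196). The fatty acid count was 9 without acarbose 3 and 11 without control 3, and the citric acid cycle count 10 without acarbose 2 and 4 without acarbose 3.

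Lipid synthesis genes moved in both directions. Of 35 lipogenesis genes 3 rose and 5 fell (median -0.36). The desaturase gene Fads2 fell from 785, 830 and 886 CPM to 548, 427 and 284 (-0.99 ± 0.19), and Elovl5, an elongase (-1.12 ± 0.30), Acacb, the acetyl-CoA carboxylase at the mitochondrion (-1.26 ± 0.34), and Gpam, which starts triglyceride synthesis (-0.50 ± 0.13), fell as well. Those that rose were Srebf1 and Mlxipl, which encode transcription factors of lipid and carbohydrate response, and Pnpla3. Leaving out acarbose 3, control 1 or control 2 left 0 that rose, and 1 rose without control 3. Leaving out acarbose 3 left 1 that fell, and leaving out acarbose 2 or any control left 3. Without single libraries the adjusted p reached 0.122 for Elovl5 and 0.0893 for Acacb (each without acarbose 2, acarbose 3 or control 1, Elovl5 also without control 3) and 0.108 for Gpam (without acarbose 3 or control 2). Angptl8, a regulator of lipoprotein lipase, overlapped between groups, at 17.5, 27.0 and 49.0 CPM against 36.3, 237 and 134 (2.12 ± 0.65, adjusted p = 0.0353). That call was lost without acarbose 2, acarbose 3, control 1 or control 2 (adjusted p up to 0.208). Of 28 cholesterol genes only Hsd17b7 fell (-1.04 ± 0.26), a call lost without acarbose 3 or control 3 (adjusted p up to 0.104), and 0 rose, where 1 reached 0.05 before adjustment and DESeq2 called 0. Control 3 was by far the highest control for Sqle, Fdps, Idi1 and Cyp51, and the acarbose females lay between it and the other controls. Sqle stood at 11.4, 9.98 and 78.0 CPM in controls and 27.1, 19.8 and 22.7 in acarbose females. Without control 3, 0 cholesterol genes rose and 0 fell.

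Retinoid metabolism had 5 of 27 members higher and 2 lower (median 0.03). Cyp26a1 (chromosome 19, 37697798 to 37701536), which clears retinoic acid, rose from 0.58, 1.89 and 2.23 CPM to 6.595, 9.36 and 50.3 (3.82 ± 0.58, adjusted p = 0.00017). The groups did not overlap, and acarbose 3 stood far above the other acarbose females. Dhrs9 (2.32 ± 0.59) and Adh4 (1.09 ± 0.23), which oxidize retinol, rose, and Retsat, a retinol saturase, fell (-0.89 ± 0.21). The 5 became 2 without acarbose 3 or control 2 and 3 without acarbose 2, control 1 or control 3. Dhrs9 was lost without acarbose 3, control 2 or control 3 (adjusted p up to 0.072) and Retsat without acarbose 3 (0.0601).

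A few sex-biased genes of the liver changed, where 5.28% of all tested genes passed as higher and 5.35% as lower. Of 39 female-biased genes 3 fell and 0 rose (median -0.53, with 1 higher before adjustment and 0 in DESeq2): Sult3a1, a sulfotransferase, from 305, 244 and 496 CPM to 51.0, 56.1 and 20.6 (-3.03 ± 0.55), Cyp3a41b, from 89.6, 22.5 and 104 to 8.198, 11.7 and 3.50 (-3.20 ± 0.62), and Cyp7a1. Of 41 male-biased genes 4 rose and 0 fell (median 0.06, with 0 lower at an unadjusted p under 0.05 and in DESeq2), led by Cyp2c70, a bile acid hydroxylase of rodents, from 119, 104 and 143 CPM to 223, 357 and 528 (1.60 ± 0.31). The others were the signalling gene Ihh (2.27 ± 0.52), the complement gene C8a (0.82 ± 0.23) and Hsd3b2 (1.04 ± 0.32), of which Ihh kept its call without any 1 library. C8a was lost without acarbose 2, acarbose 3, control 1 or control 3 (adjusted p up to 0.107) and Hsd3b2 without acarbose 3 or any control (0.283), and the count of 4 was 2 without acarbose 3 or control 1. In the growth hormone list Stat5b (0.38 ± 0.11) and Jak2 (0.43 ± 0.12) rose, Irs2, given above, fell (-1.15 ± 0.30), and the other members did not pass. For Stat5b and Jak2 edgeR's adjusted p was up to 0.172 and 0.0937 when acarbose 3 or control 1 was left out (Stat5b also control 2, Jak2 also acarbose 2 or control 3). Among the members that did not pass, Igf1 stood at 408, 307 and 448 CPM against 363, 307 and 300 (-0.26 ± 0.15, adjusted p = 0.299).

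Transcripts of cell division and the cytoskeleton rose, and so did some of the immediate early response. In the cell cycle list 9 of 35 measured members rose and 0 fell (median 1.22, with 0 lower at an unadjusted p under 0.05 and in DESeq2), all at low levels. Mki67 rose from 0.31, 0.59 and 0.50 CPM to 2.07, 1.97 and 1.54 (2.00 ± 0.52, adjusted p = 0.0136), Cdc20 from 24 counts over the controls to 186 (2.90 ± 0.71) and Cdk1 from 14 counts to 77 (2.40 ± 0.63). These groups did not overlap. The 9 became 1 without acarbose 2, 3 without control 1, and 5 without acarbose 3 or control 2. Mki67 was lost without control 1 (adjusted p = 0.0785 in edgeR), Cdc20 without acarbose 2 or control 1 (up to 0.0859) and Cdk1 without acarbose 2 or control 3 (up to 0.0853). Of 32 cytoskeleton and adhesion genes 10 rose and 0 fell (median 0.54, with 1 lower before adjustment and 1 in DESeq2). Tuba1b rose from 18.1, 10.8 and 19.7 CPM to 33.5, 57.6 and 55.4 (1.59 ± 0.26), Tubb5 from 48.9, 39.9 and 47.9 to 62.0, 110 and 117 (1.08 ± 0.23) and the keratin gene Krt8 from 168, 118 and 161 to 271, 336 and 252 (0.94 ± 0.16), none with overlap. That count was 5 without control 2. Dnmt1, the maintenance DNA methyltransferase, rose from 9.68, 7.54 and 7.96 CPM to 15.4, 16.7 and 18.9 (1.02 ± 0.15).

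Of 26 immediate early genes 6 rose and 0 fell (median 0.37, with 0 lower at an unadjusted p under 0.05 and in DESeq2). Fosb had 6 counts over the 3 controls and 606 over the 3 acarbose females, at 4.62, 13.4 and 2.18 CPM in the latter (6.53 ± 0.99, adjusted p = 0.000161). Atf3, a stress-induced repressor, rose from 2.46, 1.63 and 2.26 to 6.20, 32.3 and 9.50 CPM (2.91 ± 0.52) and Ier5 from 6.54, 7.28 and 6.12 to 10.97, 33.0 and 12.5 (1.5 ± 0.28). Acarbose 2 was the highest library in each of these. Fos (0.56 ± 1.07), Jun (0.57 ± 0.65), Junb (-0.55 ± 0.54), Egr1 (0.08 ± 0.86) and Nr4a1 (-1.48 ± 1.18) did not pass, and their groups overlapped. The immediate early count was 4 without acarbose 2 or control 3. Of 21 p53 targets 5 rose and 1 fell (median 0.44), with the pro-apoptotic Bax from 14.6, 15.4 and 17.2 CPM to 25.6, 47.2 and 38.3 (1.24 ± 0.21), and Zmat3 (0.63 ± 0.14), Mdm2 (0.51 ± 0.14) and Aen (0.64 ± 0.18). Cdkn1a, the p21 gene, did not pass, at 122, 32.3 and 35.1 CPM against 42.1, 59.9 and 39.1 (-0.43 ± 1.10, adjusted p = 0.862). The p53 count was 2 without acarbose 3 and 3 without acarbose 2 or control 1. The adjusted p reached 0.201 for Mdm2 (without acarbose 3 or control 1) and 0.143 for Aen (without acarbose 2, acarbose 3 or control 2).

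In the list of acute phase and inflammation 4 of 34 members rose and 1 fell (median 0.28). The chemokine gene Ccl2 had 6 counts over the controls and 217 over the acarbose females (5.04 ± 0.84, adjusted p = 0.000354), Tnf 7 and 52 (2.79 ± 0.79) and the adhesion gene Icam1 rose from 10.3, 14.6 and 6.51 CPM to 20.03, 26.5 and 22.4 (1.14 ± 0.32). The protease inhibitor gene Serpina3n fell (-0.70 ± 0.18), but not without acarbose 3 (adjusted p = 0.111 in edgeR). The 4 became 1 without acarbose 2, acarbose 3, control 1 or control 3. Tnf lost its call without any library other than acarbose 1 (adjusted p up to 0.0883) and Icam1 without acarbose 2, acarbose 3, control 1 or control 3 (0.129). Markers of macrophages moved with these groups: 6 of 14 Kupffer cell and macrophage markers rose and 0 fell (median 0.60, with 0 lower at an unadjusted p under 0.05 and in DESeq2). These were Adgre1, C1qa, Cd5l, Cd68, Lyz2 and Marco, and Clec4f, which marks Kupffer cells, did not pass (0.53 ± 0.21, adjusted p = 0.105). Their sum was 209 to 403 CPM of all assigned counts in controls and 386 to 681 in acarbose females, so the ranges overlapped. The macrophage count was 1 without acarbose 1 or control 3, 2 without control 1, 4 without acarbose 3 and 9 without control 2. Among 10 cholangiocyte markers Spp1 and Tspan8 rose and 0 fell (all 12 of the list summed to 83.9 to 93.1 CPM against 106.5 to 129, with 0 lower at an unadjusted p under 0.05 and in DESeq2). That count was 1 without acarbose 2, acarbose 3, control 2 or control 3. None of the markers of stellate cells (14 tested), sinusoidal endothelium (14) or T and NK cells (12) passed in edgeR, and at an unadjusted p under 0.05 and in DESeq2 the count was 1, 0 and 0. The 10 neutrophil and monocyte markers summed to 2.48 to 3.69 CPM in controls and 4.66 to 7.98 in acarbose females, without a member that passed (1 had an unadjusted p under 0.05, 0 in DESeq2). Among 3 tested gallbladder and intestine markers Lgals4 fell (-1.32 ± 0.22), with Muc5b and Fabp6 at 0 counts, and 0 rose (0 before adjustment and in DESeq2). The adipocyte markers summed to 452 to 825 CPM in controls and 81.1 to 385 in acarbose females, nearly all of it Car3, with Lep at 0 and no member that passed (1 before adjustment, 0 in DESeq2). The part of these cells in the results was not tested.

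Some genes of both ends of the liver lobule fell, and fewer rose. Of 38 pericentral genes 7 fell and 2 rose (median -0.12), with Lhpp, a phosphatase, from 134, 135 and 128 CPM to 70.9, 62.0 and 39.5 (-1.20 ± 0.21), Cyp2e1, a drug-metabolizing P450, from 8903, 8975 and 8794 to 5909, 6695 and 5798 (-0.54 ± 0.12), Slc22a3, an organic cation carrier (-1.87 ± 0.43), and Oat. Of 38 periportal genes 7 fell and 1 rose (median -0.34), with the acetylcholine receptor gene Chrna2 from 35.3, 27.0 and 36.8 to 14.6, 9.46 and 6.21 (-1.71 ± 0.22, adjusted p = 7.83e-05). Without acarbose 3 the pericentral and periportal counts of lower genes were each 4, with Cyp2e1 at an adjusted p of 0.0524 and Slc22a3 at 0.0588 in edgeR. In the list of nuclear receptor drug targets Abcb1a, an efflux pump, rose from 10.6, 10.9 and 12.2 CPM to 31.0, 35.0 and 71.5 (2.03 ± 0.32) and Cyp2c55 from 23 counts to 376 (4.03 ± 0.88), the latter with 11.2 CPM in acarbose 3 and 0.31 in acarbose 1. Without acarbose 3 Cyp2c55 did not pass (adjusted p = 0.151 in edgeR). The P450 reductase gene Por fell (-0.74 ± 0.21), a call lost without acarbose 1, acarbose 2, control 1 or control 2 (adjusted p up to 0.0939).

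The remaining largest changes were in genes of varied function. Ptgds, a prostaglandin D synthase, rose from 2.03, 2.78 and 2.69 CPM to 17.9, 32.6 and 31.0 (3.44 ± 0.48), Tmem141 from 5.53, 5.83 and 5.98 to 14.9, 34.1 and 45.3 (2.44 ± 0.27) and Paxx, a factor of DNA end joining, from 10.1, 8.50 and 7.61 to 18.03, 39.9 and 65.2 (2.23 ± 0.32). The homeobox gene Lhx6 (2.27 ± 0.41), Epb41l1 of the membrane skeleton (2.04 ± 0.40) and Slc41a2, a magnesium carrier (1.97 ± 0.43), were the other large increases. Slc41a2 lost its call without acarbose 3 (adjusted p = 0.0806 in edgeR). Large decreases were in the sulfotransferase genes Sult3a2 (-3.53 ± 0.85) and Sult2a7 (-2.71 ± 0.58), the laminin gene Lamb3 (-2.93 ± 0.59), the leptin receptor gene Lepr (-2.75 ± 0.70), Cyp4a32 (-2.67 ± 0.72), Cntnap1 (-2.58 ± 0.76) and Serpinb1a (-2.57 ± 0.62). Of these 7, Sult2a7 and Lamb3 kept their calls in every fit without 1 library, and the others lost theirs without acarbose 3, with adjusted p up to 0.154. Lepr, Cyp4a32 and Cntnap1 also lost theirs without acarbose 2 or control 1, and Serpinb1a without acarbose 2.

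The smaller lists held a few changes each, to be read beside the 5.28% of all tested genes that passed as higher and the 5.35% as lower. Slc40a1, which encodes the iron exporter ferroportin, rose from 119, 171 and 188 CPM to 253, 249.5 and 315 (0.78 ± 0.17), without overlap and with its call kept without any 1 of the 6 libraries. It was the 1 of 19 metal handling genes that rose, and the zinc and iron carrier gene Slc39a14 fell (-0.46 ± 0.12). Of 24 apolipoprotein and lipoprotein assembly genes Apoa5 (-0.51 ± 0.13) and Mttp, which loads lipid onto apolipoprotein B (-0.44 ± 0.12), fell and Angptl8 rose. Of 14 haem genes Cpox (-0.67 ± 0.16) and Uros (-0.54 ± 0.17) fell and Ppox rose (0.60 ± 0.17), all of them enzymes of haem synthesis. Of 33 complement and coagulation genes Masp2 fell (-0.51 ± 0.12) and C8a rose, and of 29 autophagy and lysosome genes Wipi2 (-0.29 ± 0.08) and Lamp2 (-0.32 ± 0.10) fell and 0 rose (1 before adjustment, 0 in DESeq2). Of 38 matrix genes the basement membrane genes Nid1 (1.01 ± 0.30), Nid2 (0.66 ± 0.21) and Lamc1 (0.51 ± 0.15) rose and Lamb3 fell, and of 25 targets of the integrated stress response Atf3 and Mthfd2 rose and Cth fell, where 7 rose without acarbose 1. Meg3, an imprinted RNA, rose from 49 counts over the controls to 274 (2.45 ± 0.79). Apart from Angptl8, Atf3, C8a, Cth, Lamb3 and Mthfd2, given above, each of these genes other than Slc40a1 lost its call without acarbose 3, with adjusted p over all fits without 1 library up to 0.232. For Apoa5, Cpox and Masp2 that was the only library whose loss ended the call.

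**Figure D3:**
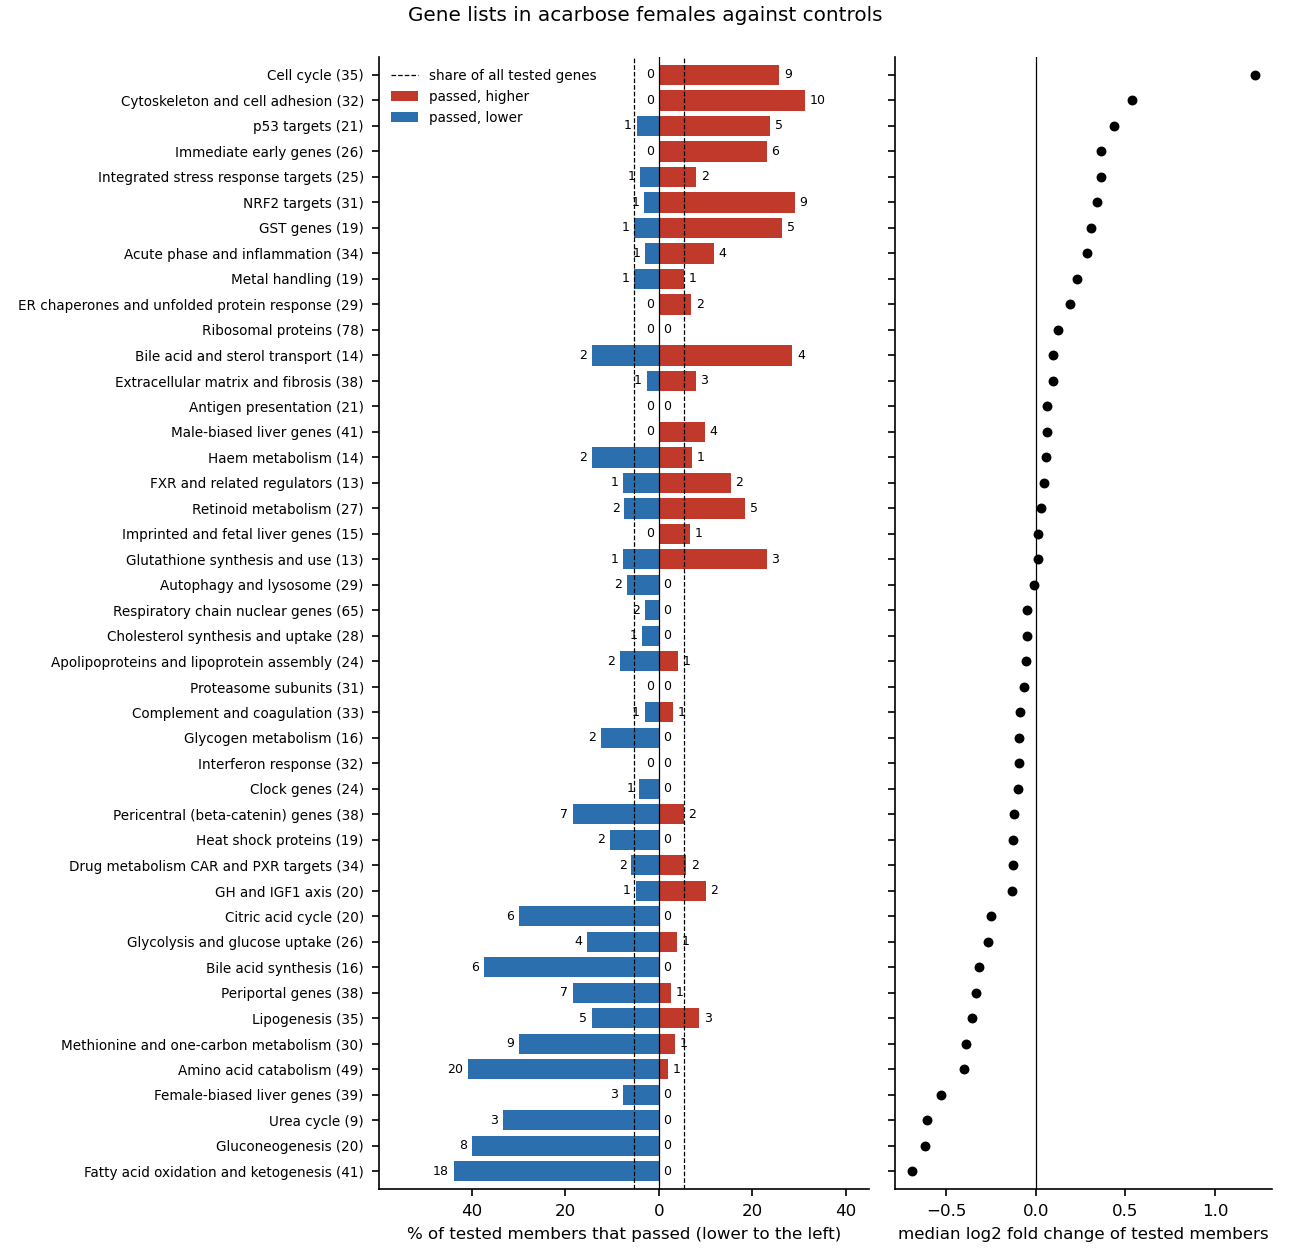
For 44 gene lists, with the number of tested members in parentheses, bars give the percentage of members that passed as higher (right) or lower (left), with counts at the bar ends, and points give the median log2 fold change. Dashed lines mark the share of all tested genes, 5.28% higher and 5.35% lower. The longest bars to the left are those of fatty acid oxidation, amino acid breakdown and gluconeogenesis, and cytoskeleton and NRF2 targets have the longest to the right.

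Several large families stayed without a call in edgeR, and other lists held few. Over all tested genes 5.28% passed as higher and 5.35% as lower. Of 78 ribosomal protein genes 0 passed (3 higher and 1 lower at an unadjusted p under 0.05, 0 in DESeq2, and 11 higher without acarbose 1). Of 31 proteasome subunits 0 passed (0 higher and 2 lower unadjusted, 0 in DESeq2), of 32 interferon response genes 0 (2 higher unadjusted, 1 in DESeq2) and of 21 antigen presentation genes 0 (1 higher unadjusted, 1 in DESeq2). Among 29 endoplasmic reticulum genes Sec61b (0.82 ± 0.19) and Ern1 (0.73 ± 0.18) rose and 0 fell (0 unadjusted and in DESeq2), and among 24 clock genes Hlf fell (-0.59 ± 0.16) and 0 rose (1 unadjusted, 0 in DESeq2). Of 19 heat shock genes Hspd1, the mitochondrial chaperonin, fell from 509, 422 and 541 CPM to 362, 300 and 290 (-0.63 ± 0.12), beside Hspa4 (-0.31 ± 0.10). Calls on Ern1 (without acarbose 3 or control 1, adjusted p up to 0.0916), Hlf (without acarbose 2, acarbose 3, control 2 or control 3, up to 0.154) and Hspa4 (without acarbose 2, acarbose 3, control 1 or control 3, up to 0.182) were lost in single fits.

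Males of 6 months on the same dose for the same time had 0 passing genes in edgeR. There 1262 genes reached 0.05 before adjustment, and DESeq2 called 19. A test of the difference between the sexes passed for 56 genes, 32 with a larger log2 fold change in females (0.216%) and 24 with a smaller one (0.162%). Bhmt stood at 3256, 3295 and 1977 CPM in control males and 2830, 3605 and 1865 in acarbose males, with ranges that overlapped, and its effect was lower in females (-3.25 ± 0.68, adjusted p = 0.0375 in edgeR). All control females lay above, and all acarbose females below, the 6 males. Dmgdh had a lower effect in females (-1.11 ± 0.18, adjusted p = 0.0149), with control males at 744, 675 and 702 CPM and acarbose males at 818, 848 and 1008, so that it was higher in every acarbose male than in the controls. Oat (-1.94 ± 0.36), Mat1a (-1.51 ± 0.33), Chrna2 (-1.53 ± 0.31), Lhpp (-1.42 ± 0.29), Slc27a2, a fatty acid carrier (-0.83 ± 0.17), and Sympk, a factor of RNA 3' end processing (-0.75 ± 0.13), also had lower effects in females. Higher effects in females were found for Kyat1 (1.24 ± 0.23), the transcription factor gene Ets2 (0.89 ± 0.16), the p53 cofactor gene Ppp1r13b (0.98 ± 0.19), the kinase gene Prkcd (1.41 ± 0.27), the scaffold gene Slc9a3r2 (1.06 ± 0.21) and Dnmt1 (1.06 ± 0.21). Of these 14 genes, Dmgdh and Sympk passed in all 12 fits without 1 library, and the other 12 were lost in at least 2, with adjusted p up to 0.174.

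Cyp8b1, Gstm3 and Cyp7a1 did not pass as different between the sexes, with differences of -3.38 ± 0.83 (adjusted p = 0.0664), 3.56 ± 0.87 (0.0664) and -2.64 ± 1.09 (0.26). Slc51b had nearly the same value in both sexes, 3.49 ± 0.64 in females and 3.31 ± 0.79 in males, and the difference did not pass (adjusted p = 0.974 in edgeR). Over the 783 genes that rose in females, 69.2% had a fold change above 0 in males, where 47.3% of all tested genes did, and the median in males was 0.12 against 0.78 in females. Over the 792 that fell, 68.1% were below 0 in males, where 52.6% of all were, with a median of -0.08 against -0.66. The genes were chosen by their calls in these females, which enlarges the female medians. The gap in medians therefore does not measure a difference between the sexes. Controls were not shared between the sexes. The count of 56 was 388 without acarbose female 1, 34 without acarbose female 2, 7 without acarbose female 3, 2 without control female 1, 23 without control female 2, 7 without control female 3, 6 without acarbose male 2 or 3, 13 without control male 1 and 3 without control male 3. It was 6 without the 6 libraries of 6 months that had over 1000 counts of markers of another tissue, among which acarbose male 3 was the only library of the 12 compared, 3 with only the 12 compared libraries in the fit, and 308 in DESeq2.

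**Figure D4:**
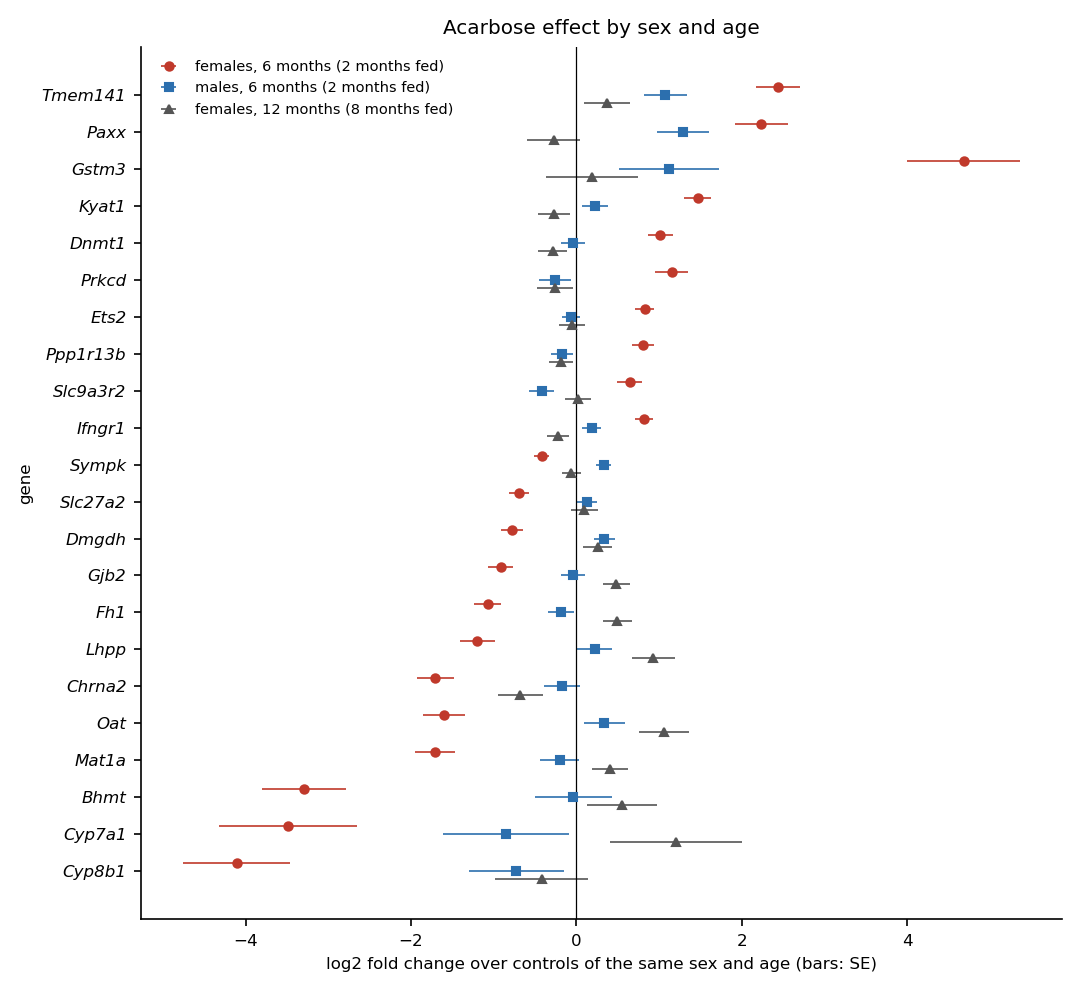
Points give the log2 fold change of acarbose over controls of the same sex and age for 22 genes, with bars of 1 SE, in females of 6 months (circles), males of 6 months (squares) and females of 12 months (triangles, from the joint fit). For Bhmt, Mat1a, Oat, Lhpp and Kyat1 the circles stand apart from the other symbols, and for Tmem141 and Paxx the squares lie on the side of the circles.

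In females of 12 months, after 8 months of acarbose, 7 genes passed in a joint fit of both ages. Before adjustment 1266 reached 0.05, and DESeq2 called 30. A test against the effect at 6 months passed for 249 of 15159 genes, 133 with a higher effect at 12 months (0.877%) and 116 with a lower one (0.765%). Age goes with the length of feeding, and these cannot be told apart. Mat1a had an effect higher at 12 months by 2.12 ± 0.31 (adjusted p = 0.000335), with control females of 12 months at 3120, 3579 and 3275 CPM and acarbose females at 5218, 4307 and 3709, where the acarbose libraries lay above the controls. Oat (2.66 ± 0.43), Bhmt (3.85 ± 0.63), Fh1 (1.57 ± 0.25), Lhpp (2.135 ± 0.37) and Gjb2, a gap junction gene (1.41 ± 0.23), likewise had higher effects at 12 months. Among bile acid genes, Slc10a1 (0.996 ± 0.21, adjusted p = 0.00765), Cyp8b1 (3.69 ± 0.82, adjusted p = 0.0128), Hsd17b4 (0.68 ± 0.17, adjusted p = 0.0277) and Cyp7a1 (4.70 ± 1.17, adjusted p = 0.0283) did so. Cyp8b1 was lost without control female 1 of 12 months (adjusted p = 0.0675 in edgeR), and Cyp7a1 and Hsd17b4 in 5 each of the 12 fits without 1 library (each up to 0.131), while Slc10a1 passed in all 12. For Mat1a and Bhmt every control female of 6 months stood above every control female of 12 months, so the controls also differed between the ages.

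Gstm3 had an effect lower at 12 months by -4.49 ± 0.84 (adjusted p = 0.00355). In that joint fit its level was 4.17, 2.19 and 4.56 CPM in controls of 6 months, 68.8, 95.2 and 53.8 in controls of 12 months and 86.4, 56.6 and 104 in acarbose females of 12 months. Controls of 12 months thus already stood within the range of the acarbose females of 6 months, at 18.3, 57.1 and 205. Lower effects at 12 months were also found for Kyat1 (-1.73 ± 0.28), Tmem141 (-2.06 ± 0.39), Paxx (-2.50 ± 0.46), Dnmt1 (-1.30 ± 0.25) and Ifngr1, the interferon gamma receptor gene (-1.03 ± 0.19). Kyat1 and Paxx likewise had higher controls at 12 months, at 108, 112 and 131 CPM and at 21.0, 35.9 and 41.0. Gsta2 did not pass as different (-0.29 ± 0.62, adjusted p = 0.884), with an effect of 1.68 ± 0.45 at 12 months. Of the 1575 genes, the 783 that rose at 6 months had a median of 0.03 at 12 months with 54.8% above 0 (49.1% of all genes), and the 792 that fell a median of 0.02 with 47% below 0 (50.8% of all). These genes were chosen by their calls at 6 months, which enlarges their effects there. The count of 249 was 73 without acarbose female 3 of 6 months, 63 without control female 1 of 12 months, 132 and 140 without control female 1 and 3 of 6 months, 163 without acarbose female 1 of 12 months, 431 without control female 3 of 12 months and 483 without acarbose female 1 of 6 months. It was 8 with only the 12 compared libraries in the fit and 546 in DESeq2.

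**Figure D5:**
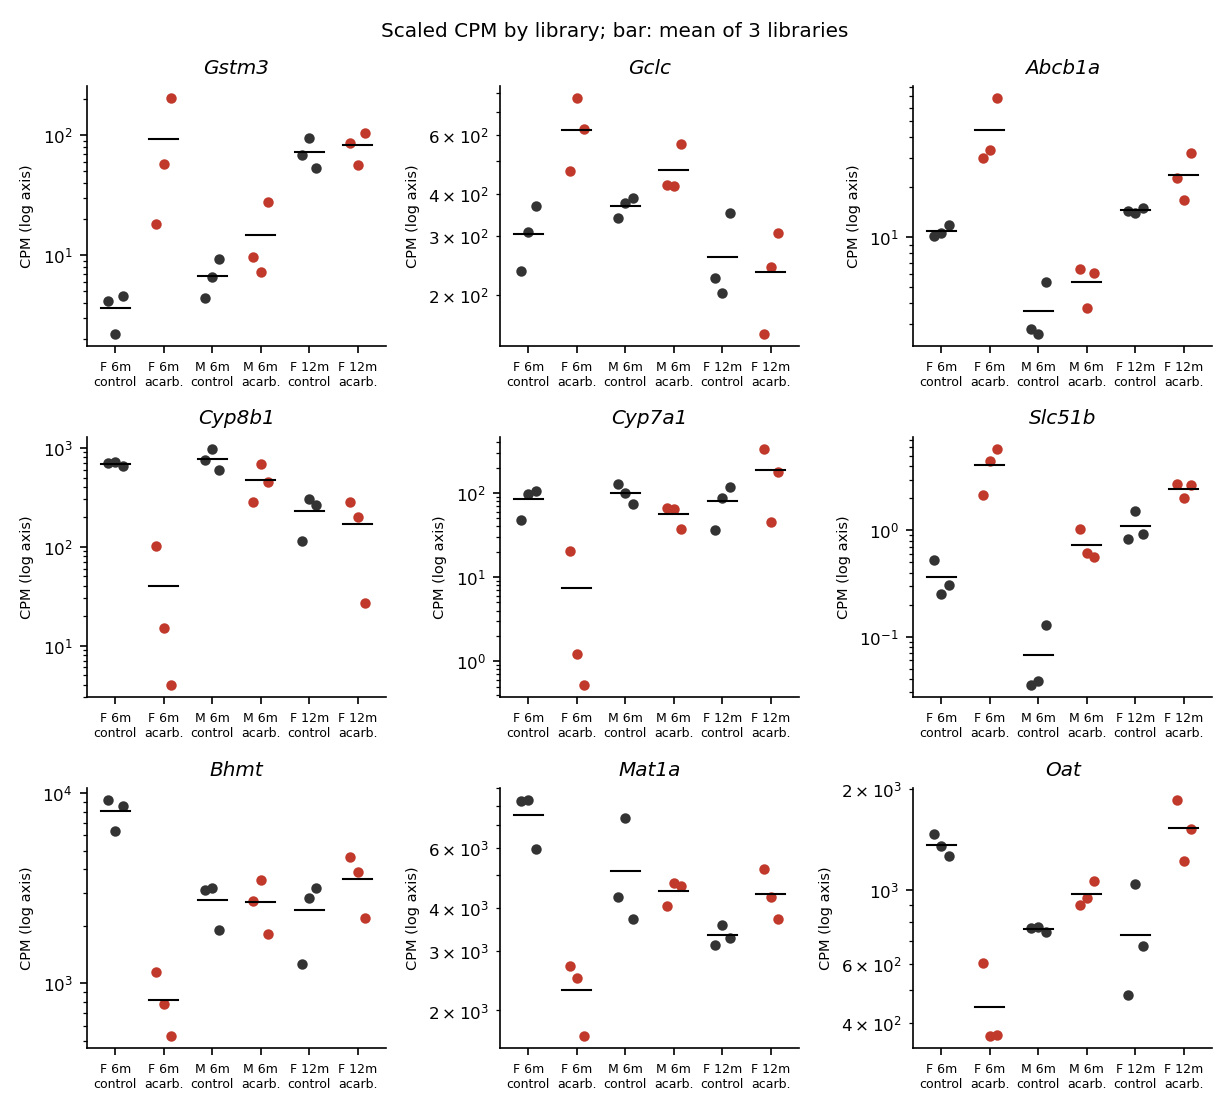
Scaled CPM of 9 genes on log axes, from the joint fit, in females (F) and males (M) of 6 months and females of 12 months, with 1 point per library (controls dark, acarbose red) and a bar at the mean of 3. Bhmt shows 3 control females of 6 months at 6322 to 9236 above every other library, and Gstm3 shows the controls of 12 months, at 53.8 to 95.2, far above those of 6 months.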

How the data were processed

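Liver RNA of UM-HET3 mice was measured as poly(A) libraries. The deposited table holds raw read counts per gene for 78 libraries and 43629 genes. Per the submitters' processing notes, bcl2fastq 1.8.4, Trimmomatic 0.32, STAR 2.5.2b and featureCounts 1.5 were used, with mm10, and the options were not given in the sources used here. Symbols were found for 42462 genes, and 14660 genes had no count in any library. Counts were tested in edgeR 4.0.16 (R 4.3.3) with robust quasi-likelihood F tests, TMM scaling and the default filter on low counts, with Benjamini-Hochberg adjustment at 0.05. The effect in females and its difference from males came from 36 libraries of 6 months (12 groups of 3), and the difference between ages from 60 libraries (20 groups). Both sets hold groups of both sexes on other treatments. An SE is the fold change divided by the root of F. The 6 libraries held 25797046 to 31973353 counts, and levels of a few counts are imprecise.

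The group of mice and the gene lists were chosen with earlier results of these data known. Of 1307 symbols in the lists, 1304 matched. The text names the 12 largest fold changes in each direction (mean log2 CPM of at least 2, no overlap), 4 members or fewer per list by adjusted p, 6 or fewer for each direction of a difference, and key genes of each pathway. A few genes that this rule chose are not reported here. Other list members are named to account for counts, after their values were seen. No library pair agreed within sampling noise. The alternatives were DESeq2 1.42.0, its size factors, no filter, fewer groups in the fit, a replicate block, each library left out, and no libraries with over 1000 counts of markers of kidney, muscle, adrenal or pancreas. The fits were tested on simulated data.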

Additional observations from a re-analysis of the deposited data

Results flagged for a closer look

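Of the 146 genes chosen for closer description, 20 passed edgeR's quasi-likelihood test of a difference between the acarbose effect in females and in males of 6 months, and 54 passed the test between females of 12 and of 6 months. The differences given here, 14 and 19 of these, are of genes with the largest changes, the smallest adjusted p of a difference or a key place in a pathway. Each value is a difference of log2 fold changes over 3 libraries per group.

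Female minus male, the difference was negative for Bhmt (-3.25), Oat (-1.94), Chrna2 (-1.53), Mat1a (-1.51), Lhpp (-1.42), Dmgdh (-1.11), Slc27a2 (-0.83) and Sympk (-0.75). It was positive for Prkcd (1.41), Kyat1 (1.24), Slc9a3r2 (1.06), Dnmt1 (1.06), Ppp1r13b (0.98) and Ets2 (0.89).

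For 12 minus 6 months, the difference was positive for Cyp7a1 (4.70), Bhmt (3.85), Cyp8b1 (3.69), Cyp3a41b (3.61), Oat (2.66), Lamb3 (2.63), Lhpp (2.135), Mat1a (2.12), Fh1 (1.57), Gjb2 (1.41), Slc10a1 (0.996) and Hsd17b4 (0.68), all of which fell at 6 months. It was negative for Gstm3 (-4.49), Lhx6 (-2.62), Paxx (-2.50), Tmem141 (-2.06), Kyat1 (-1.73), Dnmt1 (-1.30) and Ifngr1 (-1.03), all of which rose at 6 months. The libraries of 6 months enter both the effect at 6 months and the difference. Some of these genes were also chosen by the size of their change at 6 months. Both favour opposite signs, so the split in signs is not a result about age. Lamb3 was lost in 8 of 12 fits that left out 1 library, Cyp3a41b in 5 and Lhx6 in 2, with adjusted p up to 0.17, 0.131 and 0.105.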

How the results depend on the processing

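No named gene that passed changed sign in any alternative. Cdkn1a, which did not pass (-0.43), was 0.47 without control 1, and a few differences between sexes or ages that did not pass, such as that of Gsta2 (-0.29, 0.39 at the highest without 1 library), also changed sign. For females of 6 months (1575 genes), DESeq2 called 2001, of which 1564 were shared, its size factors gave 1626, no filter 1054 and the fit without libraries with markers of another tissue 1511. Fitting only the female libraries of 6 months gave 1038 and only the compared groups 177, with fewer libraries behind the spread. Leaving out 1 library gave 521 to 2484. For the difference between the sexes (56 genes, 32 higher and 24 lower in females), DESeq2 called 308, no filter 15, only the compared groups 3 and no libraries with markers of another tissue 6. Leaving out 1 library gave 2 to 388. DESeq2's size factors gave 65, split 31 higher and 34 lower. For the difference between ages (249 genes), DESeq2 called 546, no filter 117 and only the compared groups 8. Leaving out 1 library gave 63 to 483. The causes of these shifts were not tested. With the replicate number as a replicate block, 1670, 46 and 283 genes passed. The same-numbered deviations correlated at 0.0573, -0.0589 and 0.0234, and acarbose 2 and 3 did not correlate best with their own number, so the numbers were not taken as pairs. Depth limits genes with few counts, such as Tnf with 7 counts over the controls.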
